A study of Homo sapiens with 18 samples.

Results

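Gemcitabine is a deoxycytidine analogue that kills dividing cells only after it has been phosphorylated inside them. The 9 genes described here encode enzymes that act on it, on the nucleosides it resembles or on the deoxynucleotide pools with which it competes. They are DCK, TK2, DGUOK, CMPK1, TK1 and UCK2, which encode nucleoside and nucleotide kinases, CDA and DCTD, which encode deaminases, and SAMHD1, which encodes a hydrolase of deoxynucleoside triphosphates. They were chosen as enzymes of gemcitabine metabolism and found by gene symbol, and all 9 were found among the 13503 genes for which a number of putative quadruplex motifs (PQs) was deposited. The same 9 symbols are also listed in each of the 5 deposited tables. Below, all genes means these 13503, which are the genes listed for CM03 in parental cells and not every gene of the genome.

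The series holds 18 RNA-seq libraries in 6 groups of 3, made from MIA PaCa-2, an established pancreatic carcinoma cell line, and from GemMIA-R3, a gemcitabine-resistant line derived from it by stepwise selection in the drug. GemMIA-R3 cells were taken with 400 nM CM03 at 6 h and 24 h, GemMIA-R3 cells without CM03 at both times, and parental MIA PaCa-2 cells without CM03 at both times, the vehicle being PBS. Gemcitabine had been withdrawn from the resistant cells before the experiment. CM03 is a naphthalene diimide compound made to stabilise G-quadruplexes, and the study asked what it does to expression in resistant cells. The tables give expression as the submitters' comparisons between groups, with no values per library, and these were not used here. The depth of the libraries is therefore unknown, no level or change of expression is given for any gene, and the cell type was not checked against its markers.

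DCK, deoxycytidine kinase, adds the first phosphate to gemcitabine, and CMPK1, the cytosolic UMP/CMP kinase, adds the next. TK2 and DGUOK are the mitochondrial deoxynucleoside kinases, TK1 is the cytosolic thymidine kinase of dividing cells, and UCK2 phosphorylates uridine and cytidine. CDA, cytidine deaminase, turns gemcitabine into an inactive uridine derivative, and DCTD, deoxycytidylate deaminase, deaminates gemcitabine monophosphate. A G-quadruplex is a stacked structure that guanine-rich DNA or RNA can fold into. The canonical motif is written in the study with 4 runs of at least 3 guanines, separated by gaps of 1 to 7 bases. Unless stated otherwise, 4 or more runs so spaced, on either strand, were counted here as 1 motif.

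The motif sites shown first are those of genes that stood low in the comparison of the members. DCK, with few sites, carried one just before its start and one in intron 2. The single motif within the DGUOK transcript lay in intron 3. A SAMHD1 site crossed an edge of exon 4 and overlapped coding sequence only in part, by a length not given here. Each is printed 5′ to 3′ on its G-rich strand with hg38 coordinates, and capitals mark runs of at least 3 guanines.
DCK chr4:70993582-70993607: GGGcgaGGGccgaGGGGcagctaGGG
DCK chr4:71017780-71017801: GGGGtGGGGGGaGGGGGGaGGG
DGUOK chr2:73950554-73950572: GGGatGGGaatGGGGaGGG
SAMHD1 chr20:36935007-36935030: GGGtaagaaGGGaatGGGGtGGGG
The DCK sites and the SAMHD1 site shown are on the coding strand of their genes and the DGUOK site on the template strand. Of the 3 SAMHD1 sites in all, 2 are on the template strand. Over the 59 sites found in the 9 genes and 2 kb upstream of them, the median length was 27 bases.

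The 9 genes had deposited motif numbers from 1 to 11, between the lowest of all genes and their upper quartile. TK2 had 11 motifs, UCK2 10, DCTD 9, CMPK1 7, CDA 4, SAMHD1 3, DCK and TK1 2 each, and DGUOK 1. The median of the members was 4, against 5 over all 13503 genes, whose middle 50% ran from 2 to 11. Of the 9 genes, 4 (44.4%) lay above the median of all genes and 5 below it, against 45.1% above it among all genes. None of the 9 was at 0, where 1346 genes (9.97%) stood. These are numbers read from sequence, with no replicates, so no test was made between them. They depend on the region and the rule used for counting, as the counts in hg38 below show.

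Among the kinases the motif number separated the genes widely. DCK had as few motifs as TK1, with 22.02% of all genes having fewer, 10.5% as many and 67.4% more. By motifs counted in the hg38 transcript DCK had 1 and TK1 2, and 10.01% of genes had fewer than DCK. Among genes with at least 1 deposited motif, 13.4% had fewer than DCK or TK1. DGUOK stood lowest, with 9.97% of genes having fewer motifs and 78.0% more. TK2, the other mitochondrial kinase, stood highest of the 9, with 73.7% of genes having fewer. UCK2 was next at 71.0% and CMPK1 followed at 59.96%. Thus 3 of the 6 kinases lay above the median of all genes and 3 below it.

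The deaminases and SAMHD1 differed from each other as well. CDA, at 4 motifs, had 41.4% of genes below it and 51.1% above it. DCTD, at 9 motifs, had 67.9% below it. SAMHD1, which cleaves deoxynucleoside triphosphates and restrains retroviruses in myeloid cells, had 3 motifs and 32.6% of genes below it. The kinases and the other enzymes overlapped in motif number, the kinases running from 1 to 11 and the other enzymes from 3 to 9.

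**Figure D1:**
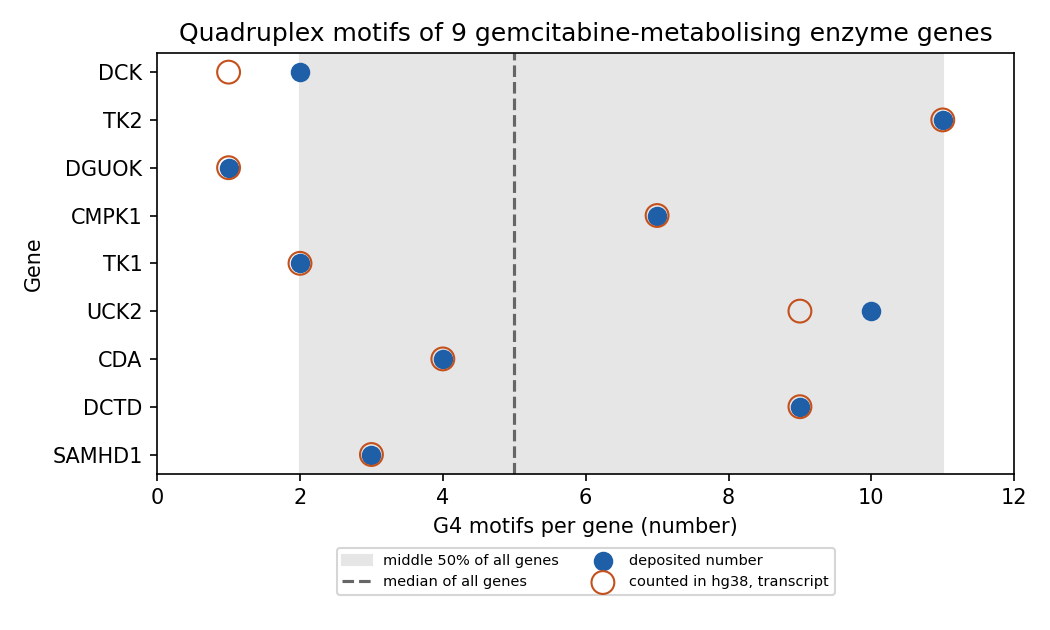
Number of G4 motifs (x axis) of each gene (y axis); filled points are the deposited numbers, open circles the motifs counted in the hg38 transcript, the grey band the middle 50% of all 13503 genes (2 to 11) and the dashed line their median (5). The filled points run from 1 for DGUOK to 11 for TK2, and the circles lie on them for all but DCK and UCK2.

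Other genes of pyrimidine and related nucleotide metabolism also spread widely. Of 22 listed, 19 had a deposited number under the same symbol, from 1 to 18 with a median of 3, and 7 of them (36.8%) lay above the median of all genes. RRM1 and RRM2, the subunits of the ribonucleotide reductase that gemcitabine diphosphate inhibits, had 7 and 3 motifs. TYMS, thymidylate synthase, had 5, and UCK1, the paralogue of UCK2, had 6. UCKL1, a further uridine-cytidine kinase family member, had the most at 18, with 85.5% of all genes having fewer.

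The order of the members changed when gene length was taken into account. The canonical transcripts of the members, from GENCODE release 44, ran from 13.0 kb for TK1 to 84.0 kb for UCK2, with a median of 37.3 kb, against 27.2 kb over the 12872 genes that could be matched. Divided by the kb of transcript, the deposited number gave TK1 0.154 motifs and UCK2 0.119, so that 52.0% of matched genes had a lower density than TK1 and 45.2% a lower one than UCK2. The order of these 2 genes by number was thus turned round by density. DCTD was the densest of the 9 at 0.330 motifs per kb, with 68.8% of genes below it, and TK2 followed at 0.261 with 63.9%. CMPK1 at 0.155 and CDA at 0.134 lay near the middle, with 52.2% and 48.5% of genes below them. DCK at 0.0537, SAMHD1 at 0.0488 and DGUOK at 0.0312 were the sparsest, with 22.5%, 20.5% and 13.6% of genes below them. By the motifs counted in the transcript in hg38, DCK had 0.0268 per kb, below the 0.0312 of DGUOK. DCK, SAMHD1 and DGUOK were therefore low on both scales, while TK1 was low in number alone.

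**Figure D2:**
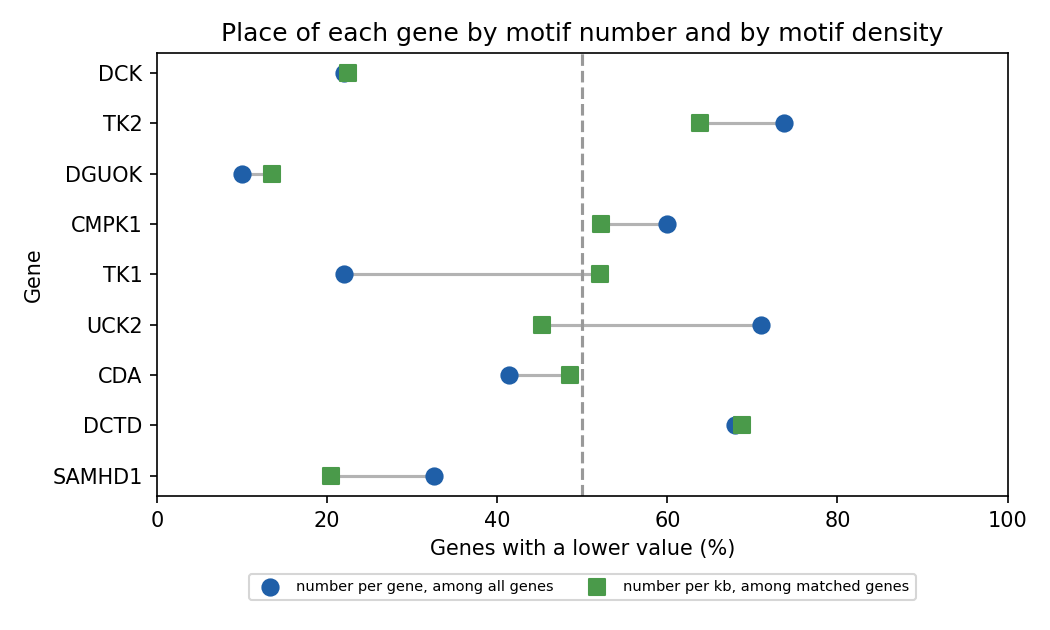
Share of genes with a lower value (x axis, %) for each gene (y axis), by deposited motif number among all 13503 genes (circles) and by motifs per kb among 12872 matched genes (squares); the dashed line marks 50%. TK1 moves right, to 52.0% by density from 22.02% by number, and UCK2 moves left, to 45.2% from 71.0%.

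The motifs counted in hg38 were set beside the deposited numbers over 2 regions. Counted over the transcript from start to end, the motif number equalled the deposited one for 7 of the 9 members and for 9711 of 12872 matched genes (75.4%). With 2 kb upstream added, it was equal for 3 members and 40.8% of genes. CDA had 4 motifs deposited, 4 counted in the transcript and 7 with its upstream sites, so that the deposited number equalled the count without them. The study's methods describe the number as taking in the promoter, exons and introns. The exceptions among the members were DCK, with 2 deposited and 1 counted in the transcript, and UCK2, with 10 deposited and 9 counted. For DCK the count with the upstream site was 2, and for UCK2 it was 11. Which gene model was used for the deposited numbers is not given in the sources used here.

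Around the transcript starts the members differed in another order. In the window from 2 kb before to 100 bases after the start, DCTD had 4 motifs, CDA 3, UCK2 and CMPK1 2 each, and DCK, DGUOK and TK1 1 each. TK2 and SAMHD1 had none, so that the gene with the highest deposited number had none in this window. Thus 7 of 9 members (77.8%) held a motif there, against 63.0% of matched genes, with a median of 1 motif in both sets. For DCTD, 89.9% of genes had fewer motifs there and 4.68% as many. For CDA 80.9% of genes had fewer.

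Close to the start, only DCK, UCK2 and DCTD held a motif in the RefSeq promoter windows of 300 bases, 250 of them before the start. This was the case for 25.04% of all 34961 such promoters in RefSeq (GRCh38.p14) on the autosomes and X. The members have 11 promoters there, since TK1 and DCTD have a pair each, and 3 of the 11 held a motif. The 250 bases before the start of DCK and UCK2, both genes on the + strand, are printed because they are the kinase genes with a motif so close to the start; whole motifs are in capitals.
DCK chr4:70993399-70993648: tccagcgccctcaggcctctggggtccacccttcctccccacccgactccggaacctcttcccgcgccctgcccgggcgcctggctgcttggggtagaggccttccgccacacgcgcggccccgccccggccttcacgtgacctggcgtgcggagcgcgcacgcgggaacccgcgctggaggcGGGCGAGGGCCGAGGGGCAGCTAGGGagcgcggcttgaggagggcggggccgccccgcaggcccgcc
UCK2 chr1:165827364-165827613: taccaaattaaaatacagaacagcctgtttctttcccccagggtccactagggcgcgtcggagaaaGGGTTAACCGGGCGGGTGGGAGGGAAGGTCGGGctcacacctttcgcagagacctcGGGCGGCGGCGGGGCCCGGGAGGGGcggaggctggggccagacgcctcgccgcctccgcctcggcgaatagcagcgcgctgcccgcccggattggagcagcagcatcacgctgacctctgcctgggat
The DCK motif ended 42 bases before the start. The UCK2 motifs lay 184 to 152 and 128 to 104 bases before it, and all 3 of these had their G-runs on the coding strand.

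DCTD, on the - strand, had a motif 123 to 94 bases before its start and another that crossed the start itself, both with their G-runs on the template strand. The upstream motifs of CDA lay much farther out, between 1950 and 1418 bases before the start. They are shown for contrast, again with capitals for runs of at least 3 guanines, DCTD before CDA.
DCTD chr4:182917480-182917509: GGGGaGGGaGGGaGGGacggcGGGGGcGGG
DCTD chr4:182917380-182917417: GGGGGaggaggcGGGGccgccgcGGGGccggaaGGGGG
CDA chr1:20587147-20587164: GGGcaGGGctGGGtGGGG
CDA chr1:20587466-20587488: GGGaGGGGaGGGGatctgaaGGG
CDA chr1:20587645-20587679: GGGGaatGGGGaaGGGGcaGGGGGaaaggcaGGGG
The first pair of CDA sites is on the coding strand and the third on the template strand. The upstream sites of the other kinases, at 1007 to 980 bases before the start of DGUOK, 1261 to 1236 before CMPK1 and 417 to 396 before TK1, were all on the template strand. DCTD had a further pair upstream, at 605 to 579 bases on the template strand and at 1458 to 1430 bases on the coding strand.

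Within the transcripts nearly all motifs were intronic, but introns also made up most of each transcript. Exonic length ran from 809 bases in CDA, of 29.81 kb, to 4824 bases in TK2, of 42.12 kb. Whether motifs were more frequent in introns than their length gives was not tested. Of the 59 sites in the 9 genes and 2 kb upstream, 43 lay in introns, 12 upstream, 3 in or at the edge of exons and 1 across a start. The exonic ones were in the 5′ UTR of CMPK1, 67 to 103 bases after its start, in the 3′ UTR of TK2 in exon 10, and at the edge of exon 4 of SAMHD1. Introns numbered 1 held 19 of the sites, and the lengths of the introns were not taken into account. CMPK1 had all 6 of its intronic motifs in intron 1, and UCK2 had 7 of 9 there. In TK2 the 10 intronic motifs were spread from intron 1 to intron 8.

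Strand differed between the genes. Over all 59 sites, 27 had their G-runs on the coding strand, which has the sequence of the RNA, and 32 on the template strand. Both sites of DCK were on the coding strand. All 3 of TK1 and both of DGUOK were on the template strand, as were 6 of 8 in CMPK1. CDA had 5 of 7 on the coding strand and SAMHD1 1 of 3. TK2, UCK2 and DCTD were near balance, with 5 of 11, 6 of 11 and 6 of 12 on the coding strand. With so few sites a gene, these splits are given as counts only.

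**Figure D3:**
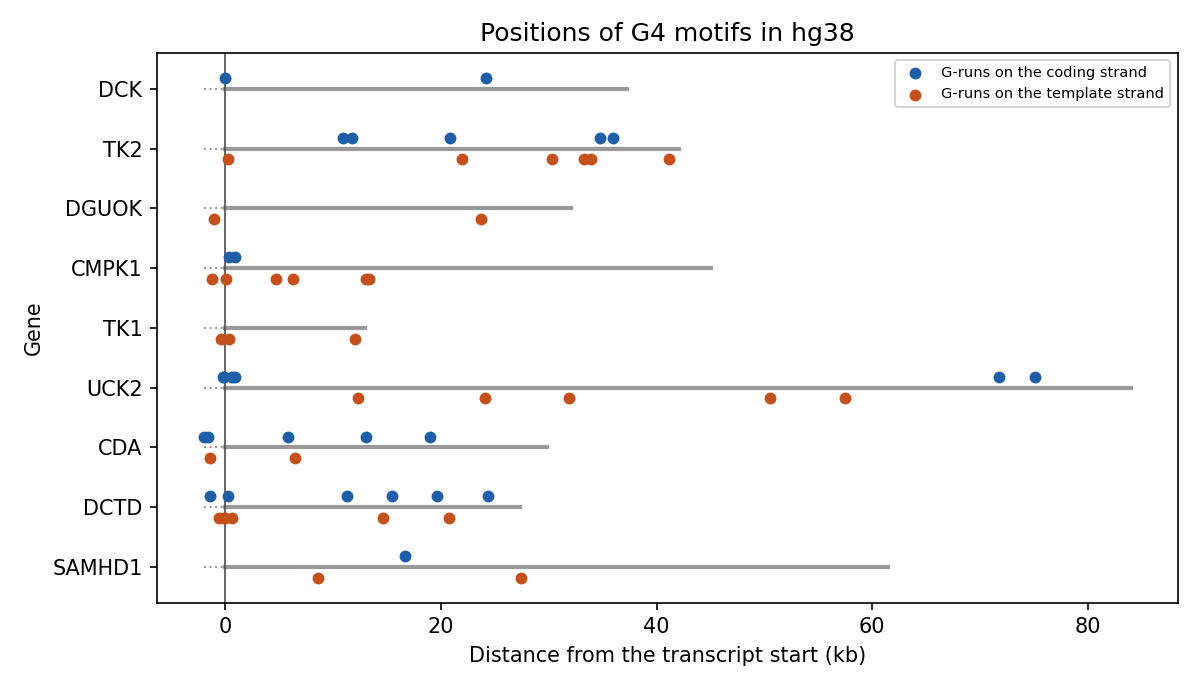
Position of each of 59 G4 motifs (points) by distance from the transcript start in kb (x axis) in each gene (y axis); solid lines span the transcript, dotted lines the 2 kb upstream, and points above and below a line have their G-runs on the coding and the template strand. Sites lie near the start in CMPK1, UCK2 and DCTD, among others, and SAMHD1 has 3 sites in 61.5 kb.

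The sites also differed in length. Of the 59, 21 had more than 4 unbroken runs, and the shortest spanned 15 bases. The TK2 sites starting at chr16:66539194 and chr16:66516180 had only 3 unbroken runs. They were counted because a gap base may itself be a guanine, so that a long run can hold a gap. The shortest was a CMPK1 site in intron 1, on the template strand, printed here because each of its gaps is a single base.
CMPK1 chr1:47338515-47338529: GGGaGGGaGGGaGGG
DCK, at 22 and 26 bases, had no site with more than 4 runs.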

How the data were processed

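The submitters trimmed reads with Trimmomatic 0.36 and aligned them to hg38 with STAR 2.5b, per the submitters' processing notes. The 5 deposited tables hold the log2 fold changes and FDRs of the authors' own comparisons between groups and marks of subsets made from them, none of which were used. The samples were grouped by their titles, but no comparison between them was made, and depth per library is unknown. None of the samples is of parental cells with CM03, and the paper used data from an earlier study of CM03 in that line for comparison. The 2 tables of CM03 in parental cells also hold the authors' number of quadruplex motifs per gene. It was the same in both for all 13503 genes and was used as deposited.

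Motifs were searched in hg38 on chromosomes 1 to 22 and X with regular expressions, left to right on each strand without overlap, in Python 3.11.15 with pandas 2.3.3. The search was tested on simulated sequence with planted motifs. A motif belongs to a transcript when its lowest coordinate lies in it. Genes were matched to GENCODE release 44 by symbol (11672) or by a RefSeq synonym (1200), and 631 were not matched. The Ensembl canonical transcript was used. Shares of genes are descriptive and no test was made. All members were named, whatever their values, and the members and the list of other genes were chosen with earlier results of these data known. Alternatives were other gene sets, density per kb, motifs counted in hg38, and a region with 2 kb upstream. The sequences of some sites are not reported here.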

Additional observations from a re-analysis of the deposited data

How the results depend on the processing

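The median over the 9 members of the share of genes with fewer motifs was 41.4%. It was 34.9% among the genes with at least 1 motif, 48.5% by motifs per kb, and 41.4% by motifs counted in hg38 over the transcript. In 2 alternatives chosen after seeing the data, it was 52.8% with 2 kb upstream in the count and 39.6% among protein-coding genes. By density 5 members moved up and 4 down, and 2 (TK1 and UCK2) crossed 50%. With 2 kb upstream 1 member, CDA, crossed it. In the remaining alternatives none of the 9 did. The main count joins motifs that touch into 1 site. Counted as exactly 4 runs each, it equalled the deposited number for 65.5% of matched genes, and for 35.9% with 2 kb upstream.

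No paired analysis was possible because no values per library were used and no result comes from a test. For the same reason the fits of GemMIA-R3 with parental cells and of CM03 with control, and their alternatives (normalization, filter on low values, leaving out a replicate, replicate block), were not run. The motifs are those of the reference genome. Neither their folding nor the sequence of these cell lines was measured here.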
